A study of Mus musculus with 48 samples.

Results

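The comparison described here sets primary mouse sarcomas given an antibody against PD-1 beside primary sarcomas given an isotype control antibody, without irradiation in either group. All tumours that the labels place in these groups were used, 8 with anti-PD-1 and 8 with isotype, or 16 of the 48 tumours of the series, and every gene of the deposited table entered the analysis. Both groups were p53 FL/FL mice on the 129/SvJae background, given Adeno-Cre into the gastrocnemius muscle at 6 to 10 weeks of age and then 300 µg of the carcinogen MCA. At a tumour volume of about 150 mm3 the anti-PD-1 group received 200 µg of muDX400, a murine antibody, into the peritoneal cavity, and the isotype group a control antibody. The dose of radiation was 0 Gy in both, and tumours were taken on day 3. Loss of p53 and exposure to MCA are therefore shared by treated and control animals, and p53 is lost only where Cre acted, so that host cells in a tumour keep it. The age at treatment and the sex of the animals are not in the labels. The other tumours of the series received 20 Gy or were allografts grown from 1 cell line. The question that the design poses here is which transcripts differ in an established primary sarcoma soon after PD-1 blockade alone.

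PD-1, encoded by Pdcd1, is an inhibitory receptor that T cells display after activation. Its ligands PD-L1 (Cd274) and PD-L2 (Pdcd1lg2) are carried by tumour cells and myeloid cells, and their binding dampens signalling through the T cell receptor. Antibodies that block the receptor can let T cells proliferate and release interferon gamma, which in turn induces chemokines, antigen presentation and PD-L1 itself in neighbouring cells. None of these transcripts reports whether antibody was bound to PD-1, so the treatment itself could not be checked in the data.

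No single gene was called. Of 17770 genes tested with edgeR's quasi-likelihood test, 0 (0%) had an adjusted p below 0.05 in either direction, and the smallest adjusted p was 0.99978. At an unadjusted p below 0.05 there were 412 genes (2.32%), of which 213 (1.2%) were higher and 199 (1.12%) lower with anti-PD-1. With no effect that threshold lets through a share of about 0.05, which is more than was seen. limma-voom with sample quality weights, which also give outlying tumours less weight, likewise called 0 genes. It had 866 at an unadjusted p below 0.05 and a smallest adjusted p of 0.56. DESeq2 called 3, which are described below. The log2 fold change, anti-PD-1 against isotype, was above 0 for 7561 genes (42.5%), and its median over all genes was -0.031. The 16 tumours bounded many changes closely and others not at all. The 95% interval lay within a 2-fold change for 12750 genes (71.8%) and within a 1.5-fold change for 8017 (45.1%). For the rest the interval reached beyond a 2-fold change, and all 18 T cell receptor genes described next belong there. Isotype tumour 4 and anti-PD-1 tumours 1 and 4 held the highest level in several gene lists, and results that turn on them are given without them as well. The p-values measure the spread between these tumours, each of which arose on its own.

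Transcripts of the T cell receptor complex were higher in anti-PD-1 tumours as a group, although no single member passed the adjusted test. All 18 genes of a list of T cell receptor and coreceptor genes had a log2 fold change above 0, against 42.5% of all genes, with a median of 1.07 or 2.09-fold. The list's level per tumour, the mean of log2(CPM + 0.5) over its members, with CPM a gene's counts scaled to a fixed library total, was above the isotype median in 8 of 8 anti-PD-1 tumours and above the highest isotype tumour in 3. Between the groups the mean level differed by 0.88, beside a within-group SD of 0.65. Members of a list can rise and fall together across tumours. The 18 genes, like those of the lists below, are therefore not separate observations. The lists were also chosen with earlier results of these data known. At an unadjusted p below 0.05 there were 2 members, beside 1.2% of all genes in that direction, and 0 members had an adjusted p below 0.05. In bulk RNA, more T cells and more RNA of these genes in each T cell cannot be told apart.

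Cd3e, a signalling chain of the receptor complex, ran from 1.74 CPM through a median of 2.55 to 7.97 in isotype tumours, and from 3.02 through 7.81 to 19.3 with anti-PD-1. The groups overlapped, with 4 anti-PD-1 tumours above every isotype tumour and all 8 above the isotype median. The log2 fold change was 1.26 (SE 0.68, 95% interval -0.14 to 2.65). Trbc2, a constant segment of the receptor's beta chain, ran from 0.820 (median 2.38) to 6.07 CPM with isotype and from 3.64 (median 6.94) to 12.6 with anti-PD-1. Its log2 fold change of 1.53 (SE 0.52) was the largest of the list, with a 95% interval of 0.47 to 2.58, and 5 anti-PD-1 tumours lay above the isotype range. Trbc1, its near-identical partner, was at 0.47, and reads may be split unevenly between them. Cd5, a receptor that tunes T cell signalling, had a log2 fold change of 1.31 (SE 0.62, 95% interval 0.05 to 2.57).

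The coreceptors of the helper and cytotoxic lineages gave different values. Cd8a, the cytotoxic coreceptor, was at 1.19 (median 2.76) to 10.96 CPM with isotype and 2.33 (median 7.58) to 22.3 with anti-PD-1, a log2 fold change of 1.05 (SE 0.69, 95% interval -0.35 to 2.45). Cd8b1, its partner chain, stood at 1.09. Only 5 of 8 anti-PD-1 tumours were above the isotype median of Cd8a and 1 was above the isotype maximum. Cd4, the helper coreceptor that macrophages can also express, had the smallest value of the list, 0.22 (SE 0.47), with nearly the same ranges of 5.29 to 19.3 and 5.50 to 19.8 CPM. With single tumours left out Cd8a was at 0.64 to 1.48 and Cd4 at 0.048 to 0.45. Both were lowest without anti-PD-1 tumour 1 and highest without isotype tumour 4. Whether Cd8a and Cd4 differ from each other was not tested.

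**Figure D1:**
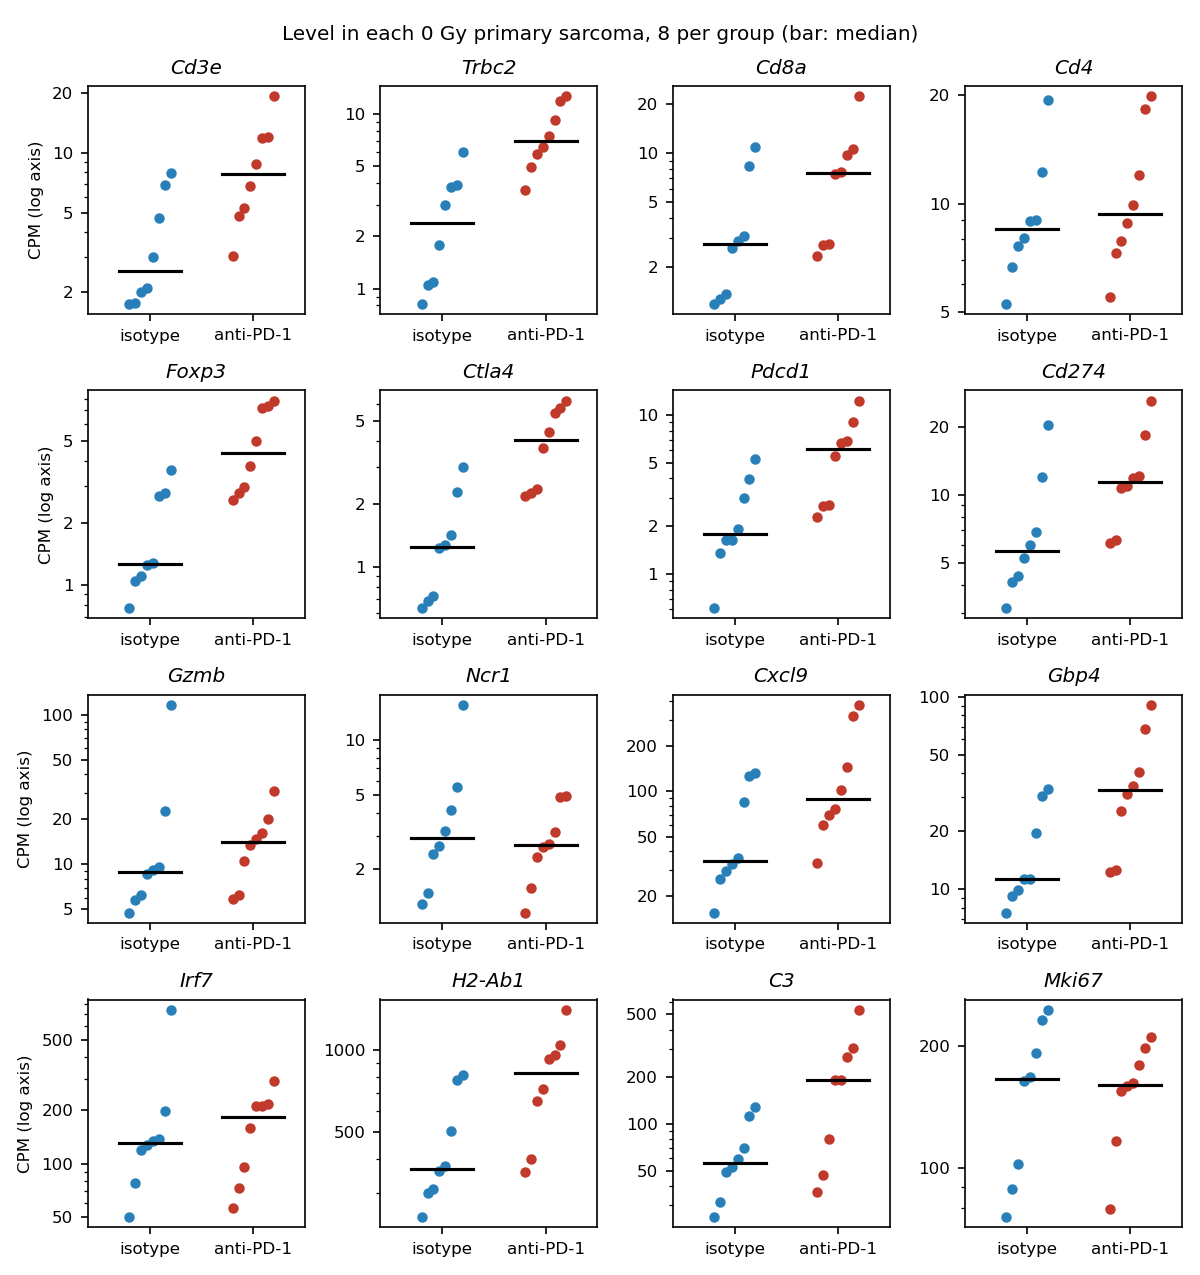
Normalised level in CPM (vertical log axis) of 16 genes in each unirradiated primary sarcoma, 8 isotype (blue) and 8 anti-PD-1 (red), with tumours ordered by value within a group and a bar at the median. The groups overlap in every panel, and for Gzmb and Irf7 a single isotype tumour lies far above the rest, at 115.4 and 738 CPM.

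Genes of regulatory T cells and of costimulatory receptors were likewise higher for most members, none of which passed the adjusted test. Of 10 genes tested in that list, 9 were above 0 with a median log2 fold change of 0.95, and 4 had an unadjusted p below 0.05, beside 1.2% of all genes. Without anti-PD-1 tumour 1 that number was 0, and without isotype tumour 4 it was 6. Foxp3, the transcription factor that defines regulatory T cells, ran from 0.772 (median 1.26) to 3.60 CPM with isotype and from 2.59 (median 4.37) to 7.79 with anti-PD-1. All 8 anti-PD-1 tumours exceeded the isotype median and 5 exceeded the isotype maximum. The log2 fold change of Foxp3 was 1.44 (SE 0.64, 95% interval 0.14 to 2.74). Ccr8, a chemokine receptor of tumour-resident regulatory T cells, had 6 anti-PD-1 tumours above the isotype range. Its log2 fold change was 1.36 (SE 0.71, 95% interval -0.09 to 2.80). All its values lay between 0.17 and 1.62 CPM, with means of 0.44 CPM with isotype and 1.14 with anti-PD-1. Ccr8 was thus eligible to be named only through the group where it is high, and its values are given as a description. The other members at an unadjusted p below 0.05 were Icos, a costimulatory receptor (1.25, SE 0.60), Il2ra, the high-affinity interleukin-2 receptor chain (0.95, SE 0.44), and Ikzf2, which encodes Helios (0.82, SE 0.39).

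Tnfrsf9, the costimulatory receptor 4-1BB, was the member at the foot of the list, with a log2 fold change of -0.039 (SE 0.51). Its values were 1.45 (median 2.52) to 26.9 CPM with isotype and 2.64 (median 5.22) to 11.03 with anti-PD-1. All 8 anti-PD-1 tumours were above the isotype median, and isotype tumour 4 alone held the highest value. Without that tumour the log2 fold change was 1.02.

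Only 1 gene of the 17770 tested separated the groups completely. Among so many genes 1 such case can arise with no difference between the groups, so it is given as a description. The gene was Ccr4, a chemokine receptor of regulatory and type 2 helper T cells, named here after its values were seen. It ran from 0.0732 (median 0.146) to 0.227 CPM with isotype and from 0.274 (median 0.536) to 0.851 with anti-PD-1. Ccr4 had a log2 fold change of 1.79 (SE 0.55, 95% interval 0.68 to 2.91) and an adjusted p of 0.99978. Every value was below 1 CPM, where counting error is largest.

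Inhibitory receptors were mixed. Of 13 genes tested, 10 had a log2 fold change above 0 and the median was 0.32. Ctla4, an inhibitory receptor of regulatory and activated T cells, had the largest value, 1.52 (SE 0.61, 95% interval 0.28 to 2.76). Isotype tumours held 0.635 (median 1.25) to 2.99 CPM of Ctla4, anti-PD-1 tumours 2.18 (median 4.05) to 6.22, and 5 of the latter were above the isotype range. Pdcd1, the gene of the antibody's target, ran from 0.612 (median 1.78) to 5.31 CPM with isotype and from 2.28 (median 6.09) to 12.3 with anti-PD-1. Again all 8 anti-PD-1 tumours lay above the isotype median and 5 above the maximum. Pdcd1 had a log2 fold change of 1.30 (SE 0.65) with a 95% interval of -0.01 to 2.62.

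Other members of that list were not tested against Ctla4 or Pdcd1. Lag3, an inhibitory receptor that binds MHC class II, had a log2 fold change of 0.27 (SE 0.32) and Havcr2, which encodes TIM-3 and is also expressed by macrophages and dendritic cells, of 0.30 (SE 0.29). Lag3 was at 0.028 without anti-PD-1 tumour 1 and at 0.47 without isotype tumour 1. Tox, a transcription factor of exhausted T cells, was at 0.32. Entpd1, the ectonucleotidase CD39, was the 1 member at an unadjusted p below 0.05 in the lower direction, beside 1.12% of all genes. It ran from 75.6 (median 140) to 370 CPM with isotype and from 44.6 (median 96.8) to 125.99 with anti-PD-1, where 0 of 8 tumours exceeded the isotype median. Entpd1 had a log2 fold change of -0.77 (SE 0.29, 95% interval -1.37 to -0.17). The isotype maximum came from tumour 3, and without it the log2 fold change was -0.44.

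Among 11 checkpoint ligands the median was 0.15 and 7 members were above 0. Cd274, the gene of PD-L1, ran from 3.15 (median 5.62) to 20.4 CPM with isotype and from 6.16 (median 11.5) to 26.3 with anti-PD-1. All 8 anti-PD-1 tumours were above the isotype median, yet only 1 was above its maximum. The log2 fold change of Cd274 was 0.73 (SE 0.40, 95% interval -0.08 to 1.54), and it was 1.12 without isotype tumour 4 and 0.50 without anti-PD-1 tumour 1. Cd80, a ligand of CD28 and CTLA-4, was at 0.61 (SE 0.32) and Pdcd1lg2 at 0.62 (SE 0.59). Cd276, the gene of B7-H3, was near 0 at -0.10 (SE 0.25).

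**Figure D2:**
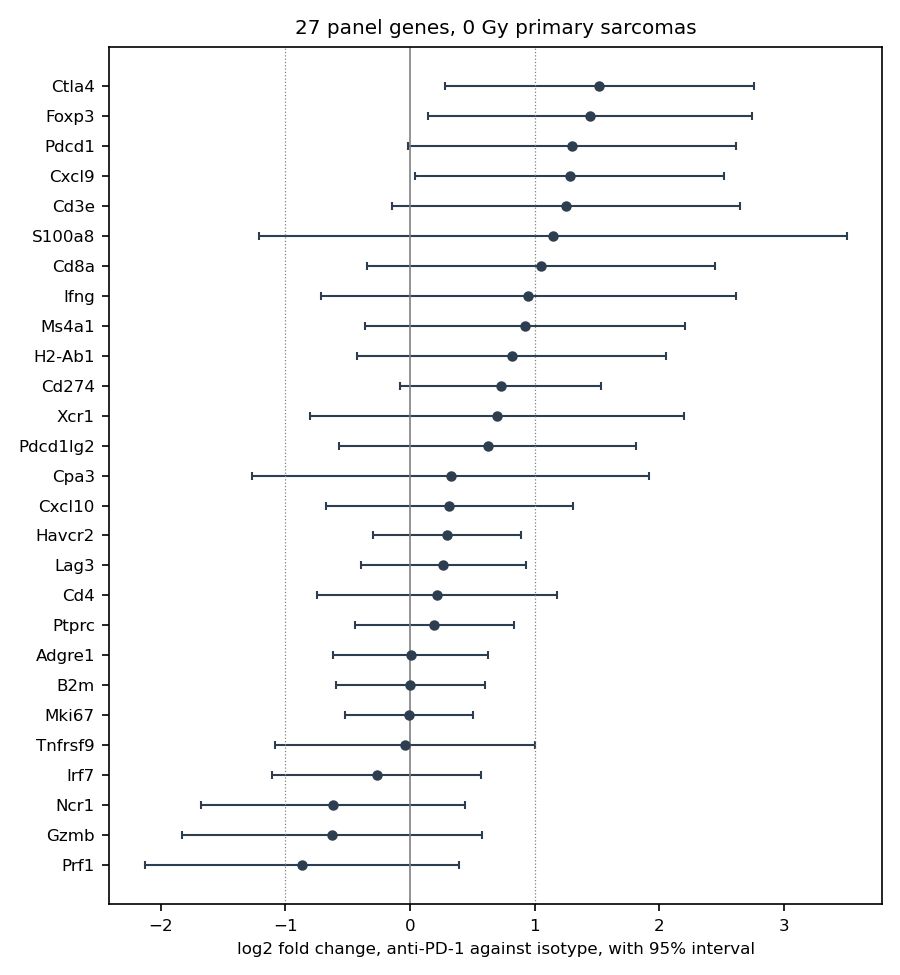
Log2 fold change, anti-PD-1 against isotype, of 27 panel genes in unirradiated primary sarcomas (points) with 95% intervals from edgeR (bars). Dotted lines mark 2-fold changes in either direction. The intervals of Ctla4, Foxp3 and Cxcl9 lie above 0, and that of Pdcd1 begins at -0.01.

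Genes of the killing machinery lay on both sides of 0. Of 15 cytotoxic effector genes 7 had a log2 fold change above 0, with a median of -0.37, whereas the mean list level differed by only 0.01 on the log2 scale, in the other direction. Gzmb, the main granzyme of activated killer cells, ran from 4.76 (median 8.89) to 115.4 CPM with isotype and from 5.90 (median 14.1) to 30.8 with anti-PD-1. Most anti-PD-1 tumours were thus a little higher, 6 of 8 above the isotype median, while isotype tumour 4 exceeded every other tumour. The log2 fold change of Gzmb, which compares group means, was -0.63 (SE 0.59), and 0.65 without isotype tumour 4. Prf1, the pore-forming perforin, was at -0.87 (SE 0.62), and at 0.30 without the same tumour. Gzmc was the 1 member at an unadjusted p below 0.05, beside 1.12% of all genes in the lower direction, with a log2 fold change of -1.71 (SE 0.81, 95% interval -3.37 to -0.05). Isotype tumour 4 held 155 CPM of it against a median of 6.27, and without that tumour the value was -0.39. Gzmc, Gzmd, Gzme and Gzmf are near-identical copies whose reads cannot be assigned with confidence.

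Ifng itself, the gene of interferon gamma, was barely detected, at 0.0227 (median 0.0682) to 0.443 CPM with isotype and 0.0474 (median 0.194) to 0.686 with anti-PD-1. Its log2 fold change of 0.95 had an SE of 0.82. Gzmk, a granzyme of memory-like CD8 T cells, was at 0.76 (SE 0.66). Of 12 natural killer cell genes 3 were above 0, with a median of -0.50. Ncr1, the receptor NKp46 that marks these cells, had a log2 fold change of -0.62 (SE 0.52) and ran from 1.30 (median 2.94) to 15.3 CPM with isotype and from 1.16 (median 2.68) to 4.98 with anti-PD-1. Without isotype tumour 4 the medians of these lists were 0.44 for cytotoxic genes, with 9 of 15 above 0, and 0.24 for natural killer cell genes, with 8 of 12 above 0. A direction for either list therefore rests on that tumour.

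Receptors and cytokines that support T cells were on the higher side, 10 of 12 genes with a median of 0.39 and 0 at an unadjusted p below 0.05. Il18r1, a chain of the interleukin-18 receptor, had the largest value at 0.84 (SE 0.56), and Il12rb1, a chain of the interleukin-12 receptor, was at 0.74 (SE 0.46).

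Genes induced by interferon gamma were higher with anti-PD-1 throughout their list, by less than 2-fold in most cases. All 19 genes had a log2 fold change above 0, with a median of 0.71 or 1.64-fold, and 6 had an unadjusted p below 0.05, beside 1.2% of all genes. Again 0 had an adjusted p below 0.05. The list level was above the isotype median in 7 of 8 anti-PD-1 tumours and above the isotype maximum in 2. Cxcl9, a chemokine that draws CXCR3-bearing T cells and depends on interferon gamma, ran from 15.6 (median 34.3) to 132.1 CPM with isotype and from 33.2 (median 89.2) to 373 with anti-PD-1. Its log2 fold change was 1.28 (SE 0.61, 95% interval 0.04 to 2.52), and 3 anti-PD-1 tumours exceeded the isotype range. Cxcl10, a related chemokine that type I interferon also induces, was at 0.32 (SE 0.49), at 0.96 without isotype tumour 4 and at 0.09 without anti-PD-1 tumour 6. The log2 fold change of Cxcl9 was 0.92 to 1.56 with single tumours left out, and the difference between these chemokines was not tested.

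The guanylate-binding proteins, cell-autonomous defence GTPases, supplied several of the remaining members. Gbp4 had a log2 fold change of 1.24 (SE 0.54, 95% interval 0.15 to 2.34) and ran from 7.54 (median 11.3) to 33.3 CPM with isotype and from 12.3 (median 32.8) to 90.3 with anti-PD-1. All 8 anti-PD-1 tumours were above the isotype median of Gbp4, and 4 above its maximum. Gbp5 was at 0.81 (SE 0.37) and Gbp2 at 0.74 (SE 0.33). Tgtp1, an interferon-inducible GTPase with a near-identical copy, Tgtp2, was at 1.24 (SE 0.57).

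The list also holds regulators of the pathway, which were not tested against the other members. Irf1, a transcription factor that interferon gamma induces directly, ran from 56.2 (median 87.0) to 123.9 CPM with isotype and from 107.6 (median 122.7) to 188 with anti-PD-1. The groups overlapped between 107.6 and 123.9 CPM, all 8 anti-PD-1 tumours exceeded the isotype median, and the log2 fold change was 0.64 (SE 0.27, 95% interval 0.09 to 1.19). Socs1, a feedback inhibitor of interferon signalling, was at 0.13 (SE 0.26).

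Promoters of the interferon gamma list are shown because its members were all on the higher side, and 1 promoter of the type I interferon list, Isg15, is set beside them. Each line is the 250 bases before the transcription start from RefSeq on build GRCm38.p6, 5′ to 3′ on the strand of the gene, and capitals mark letters that match a motif. The motif of the gamma-activated site was searched as TTCNNNGAA, and that of the interferon-stimulated response element as a pair of GAAA half-sites with any 2 bases between them, both on either strand. The stretches are chr11:53769764-53770013 (plus strand) for Irf1, chr3:142496684-142496933 (plus) for Gbp5, chr11:58199306-58199555 (plus) for Igtp and chr4:156200819-156201068 (minus) for Isg15.
Irf1: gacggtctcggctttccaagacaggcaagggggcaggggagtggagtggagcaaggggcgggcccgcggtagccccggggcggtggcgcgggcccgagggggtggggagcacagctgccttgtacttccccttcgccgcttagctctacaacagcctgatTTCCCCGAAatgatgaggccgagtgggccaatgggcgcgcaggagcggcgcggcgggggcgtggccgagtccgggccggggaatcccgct
Gbp5: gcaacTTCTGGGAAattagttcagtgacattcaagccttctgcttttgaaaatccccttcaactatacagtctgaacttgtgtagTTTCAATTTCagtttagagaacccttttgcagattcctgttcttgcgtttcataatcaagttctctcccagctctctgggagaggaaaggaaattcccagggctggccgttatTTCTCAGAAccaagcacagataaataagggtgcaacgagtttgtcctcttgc
Igtp: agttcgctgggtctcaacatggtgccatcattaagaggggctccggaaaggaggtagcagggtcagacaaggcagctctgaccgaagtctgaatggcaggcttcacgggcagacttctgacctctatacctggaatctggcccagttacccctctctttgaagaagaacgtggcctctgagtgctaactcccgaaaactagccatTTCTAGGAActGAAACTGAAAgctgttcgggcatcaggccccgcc
Isg15: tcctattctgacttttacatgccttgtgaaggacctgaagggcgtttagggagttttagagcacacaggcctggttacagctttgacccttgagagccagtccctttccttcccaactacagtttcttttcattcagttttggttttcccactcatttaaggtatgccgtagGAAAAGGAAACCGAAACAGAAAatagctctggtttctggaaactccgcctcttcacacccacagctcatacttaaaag

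The Irf1 stretch holds 1 match to the gamma-activated site, that of Gbp5 holds 2 such matches and 1 to the response element, that of Igtp holds 1 of each, and that of Isg15 holds 3 overlapping matches to the response element. Igtp, another interferon-inducible GTPase, had a log2 fold change of 0.76, and Isg15, a ubiquitin-like protein, of -0.13. Of the 19 interferon gamma genes 13 had a promoter entry, and 7 of these 13 held the first motif and 11 the second, with no overlap between matches of the different motifs. The stretch of Cxcl9, the member with the largest log2 fold change, held neither. Over all 27025 promoters of the same length the shares were 7.18% and 3.04%. Of 14 matched genes of the type I interferon list 2 held the first motif and 6 the second. Of 7 matched MHC class II genes 1 held the first and 0 the second. A match describes letters and shows no binding.

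**Figure D3:**
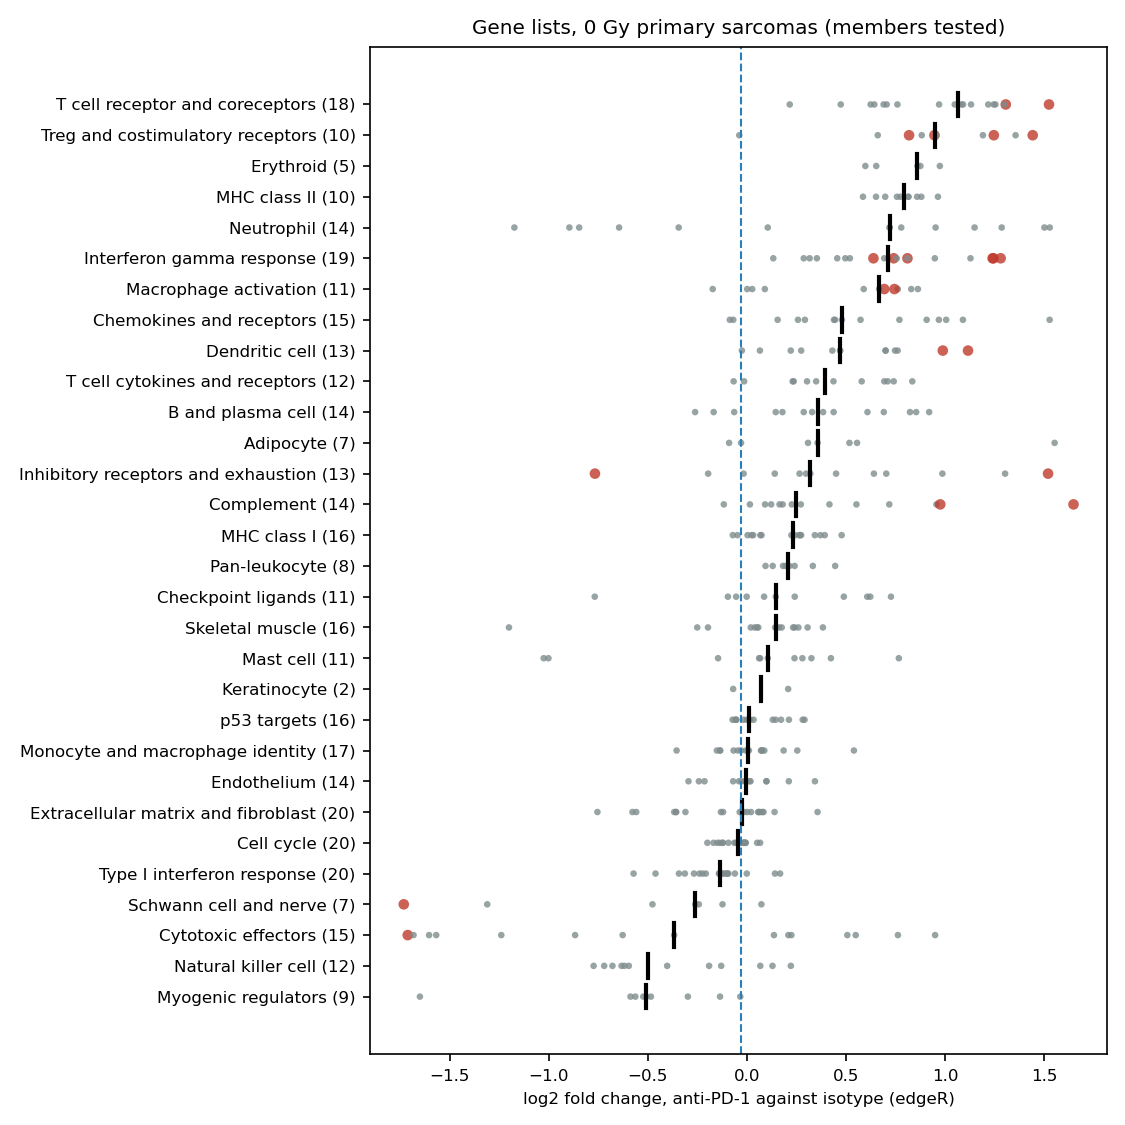
Log2 fold change, anti-PD-1 against isotype, of every tested member of 30 gene lists (points, number of members in brackets), with list medians (black bars) and the median over all genes tested (dashed line). Large red points have an unadjusted p below 0.05. All points lie above 0 for the T cell receptor, MHC class II, interferon gamma response, pan-leukocyte and erythroid lists, the last of which has 2 of 5 above 0 without anti-PD-1 tumour 4.

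Genes induced by type I interferon were mostly below 0 with all tumours in the fit. Of the 20 genes of that list 2 had a log2 fold change above 0, with a median of -0.13, while the mean list level differed by 0.0082 in the other direction. Irf7, the transcription factor that amplifies this response, ran from 49.99 (median 131.7) to 738 CPM with isotype and from 56.2 (median 184) to 293 with anti-PD-1. The highest value was again isotype tumour 4, and the log2 fold change of -0.27 (SE 0.41) became 0.45 without it. Zbp1, a nucleic acid sensor, was at 0.17 (SE 0.36), Oasl1 at 0.14 (SE 0.43) and Mx2, an antiviral GTPase, at -0.57 (SE 0.51). Without isotype tumour 4 the list had 19 of 20 genes above 0 and a median of 0.34, so that the sign of this list, too, was set by 1 tumour.

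Antigen presentation genes are given by class, and the classes were not tested against each other. All 10 MHC class II genes were above 0, with a median of 0.79 or 1.73-fold, yet 0 had an unadjusted p below 0.05, and 6 had with weighted limma-voom, beside 2.53% of all genes. H2-Ab1, a class II beta chain, ran from 244 (median 367) to 808 CPM with isotype and from 357 (median 827) to 1408 with anti-PD-1, where 4 tumours exceeded the isotype range. Its log2 fold change was 0.82 (SE 0.61), that of H2-Eb1 0.88 (SE 0.62) and that of Ciita, the master activator of class II genes, 0.96 (SE 0.66). The smallest value of the list was 0.59 (SE 0.49), for H2-DMb1, which helps load peptides. For MHC class I, 14 of 16 genes were above 0 with a median of 0.23 and 0 at an unadjusted p below 0.05. Without isotype tumour 4 all 16 were above 0 with a median of 0.61 and 6 at that threshold, beside 1.9% of all genes, while class II had a median of 0.91 and 0 at that threshold. Without anti-PD-1 tumour 1, 9 of the 16 class I genes were above 0 with a median of 0.16. B2m, the invariant light chain, was at 0.0031 (SE 0.29) with a 95% interval of -0.59 to 0.60, that is, within a 2-fold change. Nlrc5, the class I activator, was at 0.48 (SE 0.34), the immunoproteasome subunit Psmb10 at 0.39 (SE 0.27) and H2-Q7, a non-classical gene with close copies, at -0.07 (SE 0.49).

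Dendritic cell genes were above 0 for 12 of 13 members, with a median of 0.47. The 2 members at an unadjusted p below 0.05, beside 1.2% of all genes, were chemokines of mature dendritic cells that attract CCR4-bearing T cells, and without anti-PD-1 tumour 1 there were 0. Ccl22 had a log2 fold change of 1.12 (SE 0.48, 95% interval 0.14 to 2.10) and ran from 0.476 (median 1.10) to 3.12 CPM with isotype and from 0.553 (median 2.37) to 5.25 with anti-PD-1. Ccl17 was at 0.99 (SE 0.48, 95% interval 0.00 to 1.98), and all its values were below 2 CPM. Batf3, needed by cross-presenting dendritic cells, was at 0.76 (SE 0.41), with 5 anti-PD-1 tumours above the isotype range, and Xcr1, a receptor of the same cells, at 0.70 (SE 0.74).

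B and plasma cell genes had a median of 0.36 with 11 of 14 above 0, and a median of 0.57 without isotype tumour 4. Ms4a1, the gene of CD20, was at 0.92 (SE 0.63), Cd79a, a B cell receptor chain, at 0.82 (SE 0.59) and Jchain, made by plasma cells, at 0.69 (SE 0.78). In the list of chemokines and receptors 13 of 15 were above 0, with a median of 0.48 and 0 at an unadjusted p below 0.05. At that threshold 3 were higher without isotype tumour 4, beside 1.9% of all genes, and 6 with weighted limma-voom, beside 2.53%. Cxcr6, a receptor of tissue-resident T cells, was at 1.09 (SE 0.79). Ccl21a, a chemokine of lymphatic vessels and lymphoid stroma, ran from 0.898 (median 35.3) to 413 CPM with anti-PD-1 and was at 1.53 (SE 1.04), and at 0.44 without anti-PD-1 tumour 7.

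Macrophage identity genes had a median near 0. Of 17 genes 9 were above 0 (6 to 13 with single tumours left out), the median was 0.0045, and 12 had a 95% interval within a 2-fold change, beside 71.8% of all genes. With weighted limma-voom 16 of 17 were above 0 and the median was 0.21. Adgre1, the gene of F4/80, had a log2 fold change of 0.0045 (SE 0.30) and ran from 124.6 (median 136.8) to 194 CPM with isotype and from 96.9 (median 154) to 188 with anti-PD-1. Ccr2, the receptor that brings monocytes from blood, was the highest member at 0.54 (SE 0.40), with all 8 anti-PD-1 tumours above the isotype median. Folr2, a marker of resident macrophages, was the lowest at -0.36 (SE 0.37). The pan-leukocyte list was above 0 in 8 of 8 genes at a small median of 0.20, which was 0.32 without isotype tumour 4. Ptprc, the gene of CD45, stood at 0.20 (SE 0.31) with a 95% interval of -0.44 to 0.83.

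Complement genes included the largest positive log2 fold change among the immune lists. C3, the central component of the cascade, ran from 25.2 (median 56.1) to 127.6 CPM with isotype and from 36.5 (median 191) to 535 with anti-PD-1, where 5 tumours exceeded the isotype range and 2 were below the isotype median. Its log2 fold change was 1.65 (SE 0.55, 95% interval 0.53 to 2.76). Serping1, the C1 inhibitor, was at 0.98 (SE 0.41, 95% interval 0.15 to 1.81), with 7 of 8 anti-PD-1 tumours above the isotype median. Over the list 13 of 14 genes were above 0 with a median of 0.25, which was 0.43 without isotype tumour 7 and 0.69 with weighted limma-voom.

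For inflammatory myeloid genes the direction changed when anti-PD-1 tumour 4 alone was left out. Macrophage activation genes had a median of 0.67 with 10 of 11 above 0, and a median of -0.15 with 5 above 0 without that tumour. With isotype tumour 4 and anti-PD-1 tumours 1 and 4 left out together, a choice made after seeing the data, their median was 0.35 with 8 of 11 above 0. The 2 members at an unadjusted p below 0.05, beside 1.2% of all genes, were Tnf, the tumour necrosis factor gene (0.74, SE 0.36), and Il1rn, the interleukin-1 receptor antagonist (0.69, SE 0.32, and 0.30 without tumour 4). That number was 1 without anti-PD-1 tumour 1. Neutrophil genes had a median of 0.72 with 9 of 14 above 0, and -0.87 with 1 above 0 without tumour 4. S100a8, an abundant neutrophil protein, was at 90.9 CPM in that tumour and at 0.388 to 4.63 CPM in the other anti-PD-1 tumours. Mast cell genes had a median of 0.11 with 8 of 11 above 0, and Cpa3, a mast cell protease, was at 0.33 (SE 0.78). Their median was -0.13 with 3 of 11 above 0 without anti-PD-1 tumour 1, 0.51 without isotype tumour 4, -0.31 with the Xist covariate and 1.05 with weighted limma-voom. Cpa3 was at 0.020 and 0.68 without the same 2 tumours in turn.

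Cell cycle and p53 target genes had medians near 0. All 20 cell cycle genes had a 95% interval within a 2-fold change, beside 71.8% of all genes. Their median was -0.045, and 2 were above 0, beside 42.5% of all genes. The number above 0 was 0 to 13 and the median -0.22 to 0.032 with single tumours left out, the lowest median being that without anti-PD-1 tumour 6. Mki67, a marker of cycling cells, ran from 75.9 (median 166) to 245 CPM with isotype and from 79.5 (median 161) to 211 with anti-PD-1, a log2 fold change of -0.01 (SE 0.25). All 16 p53 target genes lay within a 2-fold change as well, with a median of 0.012. Mdm2, the negative regulator of p53, was at -0.07 (SE 0.12). Trp53 itself was at 20.0 (median 24.9) to 28.0 CPM with isotype and 20.9 (median 25.6) to 48.4 with anti-PD-1, a log2 fold change of 0.29 (SE 0.19). Transcripts of Trp53 in these tumours cannot be assigned to host or tumour cells, since exons outside the floxed part are still counted. Extracellular matrix genes had a median of -0.026 and endothelial genes of -0.0045, with 9 of 20 and 7 of 14 above 0, near the 42.5% of all genes. With single tumours left out 5 to 12 matrix genes and 2 to 12 endothelial genes were above 0, and with weighted limma-voom 0 endothelial genes were.

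Markers of the surrounding tissue varied widely among tumours. The skeletal muscle list level spanned 1.94 to 8.12 with isotype and 2.21 to 7.63 with anti-PD-1 on the log2 scale, and the median log2 fold change of its 16 genes was 0.15. Myogenic regulators were above 0 in 0 of 9 genes with a median of -0.51, but the median was 0.0053 without isotype tumour 1, and 4 of 9 were above 0 with weighted limma-voom. Erythroid genes were above 0 in 5 of 5 with a median of 0.86, and in 2 of 5 with a median of -0.013 without anti-PD-1 tumour 4. With weighted limma-voom 0 of 5 were above 0 and the median was -0.35. Of 8 Schwann cell and nerve genes 7 were tested, with a median of -0.26 (-0.66 to -0.04 with single tumours left out) and 1 above 0. Only 2 of 8 keratinocyte genes passed the filter on low counts.

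The single genes with the smallest p mostly reflected a few tumours. Tex11, a meiosis gene of the testis, was at 36.0 and 14.0 CPM in anti-PD-1 tumours 1 and 2 and at 0.703 CPM or below in the other tumours, with a log2 fold change of 5.91 (SE 1.46, 95% interval 2.93 to 8.88). Colec10, a collectin, was at 54.6, 22.3 and 5.44 CPM in 3 isotype tumours, and F2rl2, a thrombin receptor, at 12.9 and 7.89 CPM in 2. Their log2 fold changes were -4.25 (SE 1.11) and -3.53 (SE 0.86). These 3 genes were the ones that DESeq2 called, with adjusted p of 0.0143 for Tex11 and of 0.0222 for both others. The remaining genes of this kind, higher or lower, included the testis or germ line genes Tex14, Xlr, Rhox5, Rec114 and Slc25a31. Tex14 was at 9.24 CPM in a single anti-PD-1 tumour (next 0.530), Xlr at 30.8 (next 1.14), and Rhox5 at 45.7 CPM in a single isotype tumour (next 0.729).

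Other genes with a small p had values spread over more tumours, Marco excepted. Gsdmd, the gasdermin that forms pores in inflammatory cell death, ran from 28.3 (median 32.8) to 46.0 CPM with isotype and from 38.7 (median 46.4) to 67.3 with anti-PD-1. All 8 anti-PD-1 tumours were above the isotype median, and the log2 fold change was 0.59 (SE 0.18, 95% interval 0.23 to 0.95). Rap1gap, a GTPase-activating protein for RAP1, ran from 1.60 (median 2.00) to 3.21 CPM and from 1.55 (median 5.25) to 7.65, with a log2 fold change of 1.09 (SE 0.31). Marco, a scavenger receptor of macrophages, had a mean of 0.27 CPM with isotype and 1.15 CPM with anti-PD-1. Anti-PD-1 tumours 2 and 5 held 2.84 and 3.64 CPM of it, and the other anti-PD-1 tumours 0.13 to 0.71. Marco was thus eligible to be named only through the group where it is high, and its log2 fold change of 2.06 (SE 0.66) is given as a description. In the lower direction Exoc5, a subunit of the exocyst, was at -0.30 (SE 0.08) and Ndfip2, an adaptor of ubiquitin ligases, at -0.51 (SE 0.16). For each of them 1 of 8 anti-PD-1 tumours was above the isotype median. None of these genes had an adjusted p below 0.99978.

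A few tumours stood at the top of many lists. Anti-PD-1 tumour 1 had the highest level in 10 of 30 lists, among them T cell receptor, regulatory T cell, inhibitory receptor, checkpoint ligand, dendritic cell and MHC class II genes. Isotype tumour 4 ranked first in 6, including cytotoxic, natural killer cell, MHC class I and type I interferon genes, and anti-PD-1 tumour 4 in 3, including neutrophil genes. Anti-PD-1 tumour 8 was among the 3 highest in 12 lists and ranked first in 2, 1 of them the interferon gamma list, whose median was 0.58 without it. With each of the 16 tumours left out in turn, the T cell receptor list kept 18 of 18 genes above 0 and a median of 0.72 to 1.34. The interferon gamma list likewise kept 19 of 19 and a median of 0.58 to 0.99. With isotype tumour 4 and anti-PD-1 tumours 1 and 4 left out together, a choice made after seeing the data that kept anti-PD-1 tumour 8, the medians were 1.16 and 0.86, with 1 and 9 members at an unadjusted p below 0.05, beside 0.968% of all genes. The number of members at that threshold moved much more than the medians. For the T cell receptor list it was 2 of 18 with all tumours, 11 without isotype tumour 4, 1 without anti-PD-1 tumour 1 and 16 with weighted limma-voom. For the interferon gamma list it was 6 of 19, then 15, 1 and 15 under the same changes. The share of all genes that were higher at that threshold was 1.2%, 1.9%, 1.08% and 2.53% in the same order. Weighted limma-voom changes both the test and the weight of each tumour, and these were not tried apart.

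**Figure D4:**
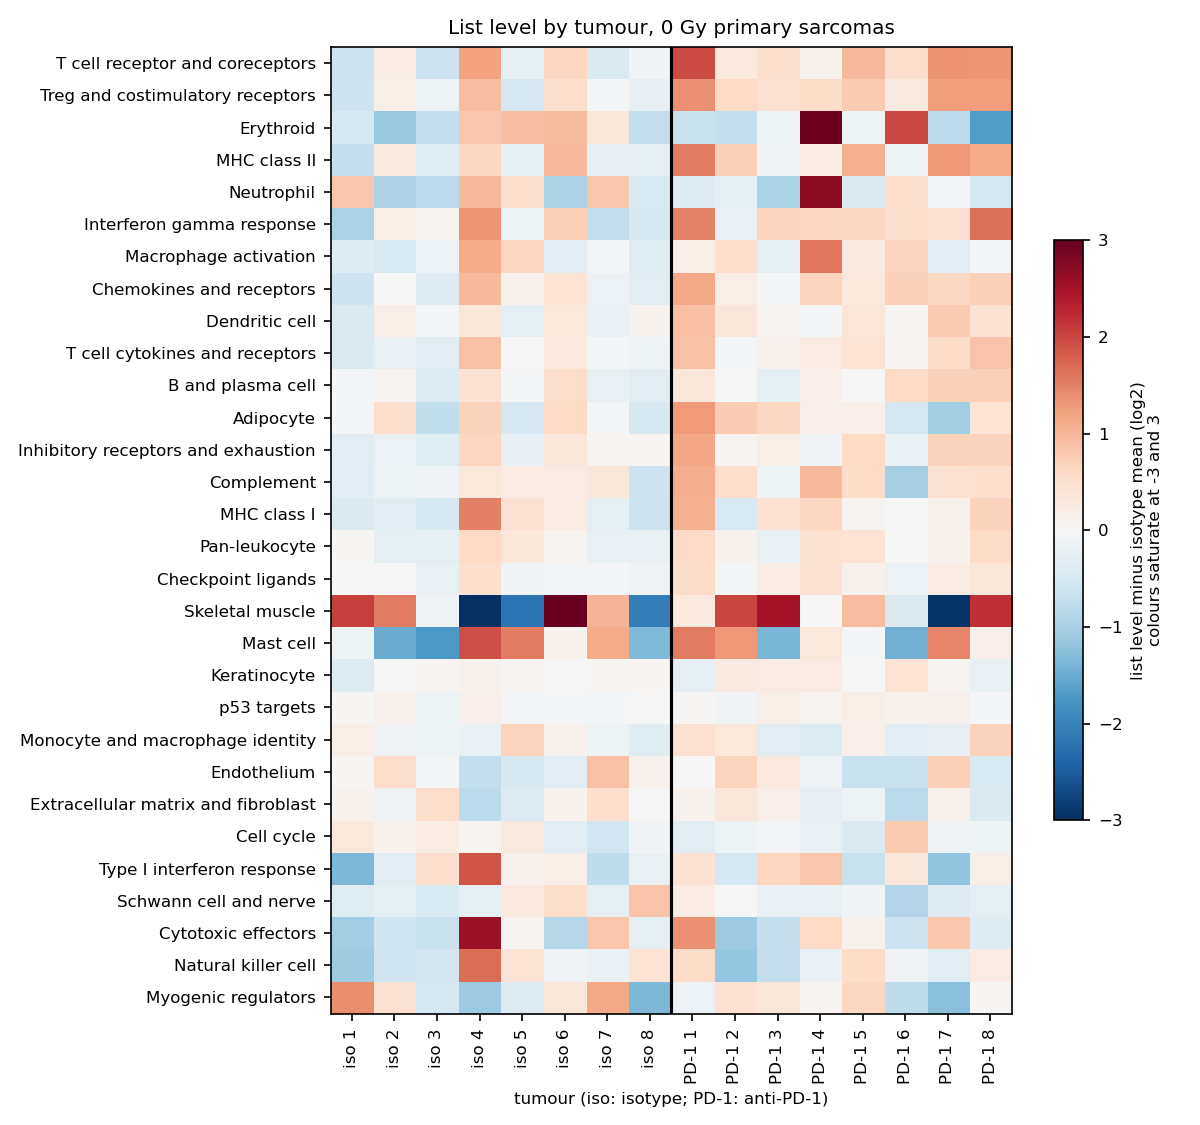
Level of 30 gene lists (rows, ordered by median log2 fold change) in the 16 unirradiated primary sarcomas (columns), as the mean of log2(CPM + 0.5) over members minus the isotype mean of that list, with colours saturating at -3 and 3. Isotype tumour 4 and anti-PD-1 tumours 1 and 4 hold the highest level in 6, 10 and 3 lists.

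Further tumours of the series, none shared with the 16 above, gave the same antibody contrast after 20 Gy (8 against 8 primary tumours) and in unirradiated allografts (4 against 4). After 20 Gy the median log2 fold change was 0.24 for T cell receptor genes, with 15 of 18 above 0, and -0.15 for interferon gamma genes, with 5 of 19 above 0. In allografts the same medians were 0.89 (18 of 18) and 0.93 (19 of 19), and that of the type I interferon list was 0.57 (20 of 20). For Pdcd1 the log2 fold change was 1.30 in unirradiated primary tumours, 0.23 after 20 Gy and 0.91 in allografts. For Foxp3 these values were 1.44, 0.58 and 1.34, and for Gzmb -0.63, -0.39 and 1.12. None of these differences was established at the level of genes. The antibody by dose interaction had 0 of 17770 genes at an adjusted p below 0.05 with edgeR, 756 at an unadjusted p below 0.05, and 1 with DESeq2, Cck. The antibody by tumour kind interaction had 0 of 19327 with edgeR, 146 at an unadjusted p below 0.05, and 1 with DESeq2, Skint3. Averaged over 0 and 20 Gy, which compares 16 with 16 primary tumours, the antibody effect also gave 0 of 17770 genes with edgeR. It had 928 at an unadjusted p below 0.05 and a smallest adjusted p of 0.24. With no effect that threshold lets through a share of about 0.05. The unadjusted counts of both interactions were below that share, and that of the averaged effect was close to it.

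**Figure D5:**
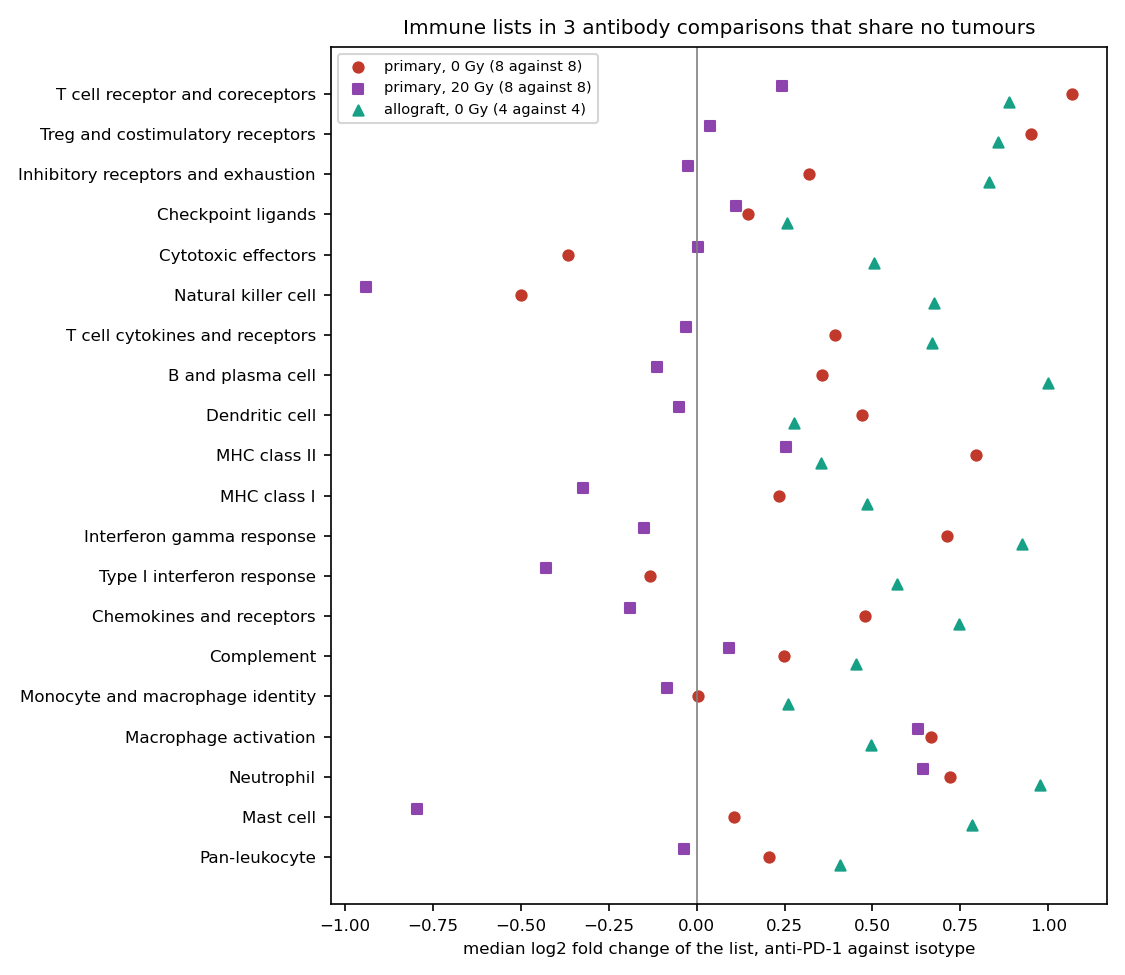
Median log2 fold change, anti-PD-1 against isotype, of 20 immune gene lists in unirradiated primary sarcomas (circles), primary sarcomas after 20 Gy (squares) and unirradiated allografts (triangles). The T cell receptor list is at 1.07, 0.24 and 0.89, and the interferon gamma list at 0.71, -0.15 and 0.93.

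Library quantities overlapped between the groups. Total counts were 37.7 to 49.2 M (M, mega) per isotype tumour and 37.8 to 53.3 M per anti-PD-1 tumour (exact 2-sided permutation p = 0.77). The mitochondrial share was 0.371 to 1.62% and 0.681 to 1.06% (exact permutation p = 0.782), and the skeletal muscle level gave an exact permutation p of 0.583. Xist, transcribed from an inactive X chromosome, was above 10 CPM in 5 of 8 isotype and 3 of 8 anti-PD-1 tumours, and with that state as a covariate the T cell receptor median was 0.81, the dendritic cell median 0.22 instead of 0.47 and the B and plasma cell median 0.20 instead of 0.36. Count profiles of tumours in a group differed well beyond counting error (chi-square per degree of freedom 94.1 to 497 over 56 pairs), so each tumour was kept as its own replicate.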

How the data were processed

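Poly(A)-selected, strand-marked libraries were made from tumour RNA with an integrity number above 7, per the labels' protocols. The authors deposited 1 table of raw counts per Ensembl gene, with 36854 genes in 48 columns, each matched to a tumour by name. Trimmomatic 0.36, STAR, HTSeq and build mm10 are named in the submitters' processing notes. Whether counting used strand is not given in the sources used here, so genes that overlap or lie antisense to one another, and close copies, have uncertain values.

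From the counts, genes were filtered with filterByExpr, scaled by TMM and tested with edgeR 4.0.16 (R 4.3.3) in 1 fit of the 32 primary tumours, with Benjamini-Hochberg adjustment over 17770 genes and a threshold of 0.05. An SE is the size of the log2 fold change over the square root of F. CPM values are TMM-normalised. Totals of 37.7 to 53.3 M counts per tumour make counting error small except below about 1 CPM. Each list's median and number of members above 0 are descriptions without a test.

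The members, the 30 lists of 407 genes, the panel of 28 genes and the tests were chosen with earlier results of these data known. Genes are named if they are in the panel, among the 10 higher and 10 lower genes with the smallest p at a mean of at least 1 CPM in either group (so that some reach it only where they are high), called in an alternative, or the 2 highest or the lowest of a list. Others were named after their values were seen (Ccr4, and further list members such as Irf1, Gbp2, Gbp5, Icos, Il2ra, Ikzf2, Tgtp1, Ccl17, Tnf, Il1rn, Tox, Igtp and Isg15), and some genes that the rule selects are covered only by their list's counts. Alternatives were other groups in the fit, size factors, filters, covariates (muscle level, Xist), limma-voom 3.58.1 with sample quality weights, DESeq2 1.42.0 (which replaces outlying counts in groups of this size) and leaving out each tumour. The procedure was tested on simulated data. Some single genes are not reported here.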

Additional observations from a re-analysis of the deposited data

Results flagged for a closer look

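In the groups of 8, the extreme tumour was set against its neighbours by Dixon's criterion for the named genes and the 30 list levels. Of 272 group values examined, 25 stood apart. Chance flags about 1 in 20 groups, but the 2 numbers cannot be set against each other, since some genes were named for a small p that a single extreme tumour gave them, and list levels move with their members.

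Among anti-PD-1 tumours, tumour 4 stood apart for myeloid genes, with 38.9 CPM of Cxcr2 (next 3.81), 36.3 of Il1rn (next 13.7) and 90.9 of S100a8 (next 4.63), and for the neutrophil list level, 4.30 against 2.12. It also held 6.47 CPM of Ptpn5, a neuronal tyrosine phosphatase (next 1.03). Tumour 6 stood apart for proliferation, with 226 CPM of Ccnb1 (next 79.0) and a cell cycle list level of 7.25 against 6.43. The same tumour held 79.4 CPM of Exoc5 and 30.8 of Xlr, and the lowest Cd276 (31.8 CPM, next 47.2) and Serping1 (22.2 CPM, next 117.5). Tumour 1 was highest for Cxcr6 (11.9 CPM, next 3.82) and Pcdhb15 (1.21), tumour 2 for Rhox5 (1.37) and Tmprss11b (12.9), and tumour 5 for Tex14 (9.24).

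Among isotype tumours, tumour 4 stood apart for lymphocyte and interferon genes, with 3.62 CPM of Gzmk (next 1.09), 26.9 of Tnfrsf9 (next 5.91) and 115.8 of Oasl1 (next 35.8), and for the checkpoint ligand list level, 4.12 against 3.66. Tumour 3 held 370 CPM of Entpd1 (next 156). Tumour 5 was highest for Folr2 (96.7 CPM) and Rec114 (12.4), and tumour 8 for Rhox5 (45.7). Tumour 1 had the lowest keratinocyte list level, 0.859.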

How the results depend on the processing

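The count of genes called stayed at 0 in the fits with other groups, size factors, filters and covariates, with limma-voom with sample quality weights (weighted limma-voom) and without each tumour. It was 3 with DESeq2 and 412 at an unadjusted p below 0.05. DESeq2 called 1 gene in each interaction. Of the alternative values of the 30 list medians, 741 moved by less than the spread between tumours and 9 by more. Over single tumours left out, medians ranged from -0.63 to 0.24 for natural killer cell genes, -0.15 to 0.92 for macrophage activation genes, -0.87 to 0.87 for neutrophil genes, -0.014 to 0.36 for keratinocyte genes, -0.13 to 0.51 for mast cell genes, -0.68 to 0.0053 for myogenic regulator genes, -0.013 to 1.05 for erythroid genes, -0.30 to 0.65 for skeletal muscle genes, -0.0038 to 0.63 for adipocyte genes, 0.16 to 0.61 for MHC class I genes, 0.24 to 0.83 for chemokine genes, 0.31 to 0.74 for T cell cytokine genes, 0.19 to 0.54 for inhibitory receptor genes, 0.080 to 0.29 for checkpoint ligand genes, 0.18 to 0.43 for complement genes and -0.66 to -0.038 for Schwann cell and nerve genes. With isotype tumour 4 and anti-PD-1 tumours 1 and 4 left out together, an alternative chosen after seeing the data, the neutrophil median was -0.77. The chemokine median was 0.95 with weighted limma-voom and the keratinocyte median 1.21 without a filter, with more members tested. Medians of the T cell receptor, interferon gamma and MHC class II lists stayed above 0 throughout. The number of genes within a 2-fold change stayed within 1.5 times its value.

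Single genes were followed if they are in the panel, have the smallest p or have a value in the report, and further genes that the naming rule selects are not listed here. None was called by edgeR, the sign turned as follows, and the cause was not tested. With the muscle level as covariate the sign changed for Adgre1 (-0.076), H2-Q7 (0.020) and Tnfrsf9 (0.11). With the Xist covariate the sign changed for Adgre1 (-0.085), Ccnb1 (-0.049), Cd4 (-0.056), Cpa3 (-0.15) and Tnfrsf9 (0.26). With weighted limma-voom the sign changed for Ccnb1 (-0.18), Folr2 (0.050), Gzmb (0.51), H2-Q7 (0.58), Irf7 (0.13), Oasl1 (-0.0070), Pcna (-0.062), Prf1 (0.24), S100a8 (-0.76), Slc25a31 (0.38) and Tnfrsf9 (0.81). With those 3 tumours left out together the sign changed for Cxcl5 (-0.87), Cxcr2 (-0.70), Gzmb (0.23), H2-Q7 (0.18), Irf7 (0.16), Mki67 (0.0086), S100a8 (-1.47) and Tnfrsf9 (0.76). With the 16 tumours fitted alone the sign changed for Mki67 (0.0072). With DESeq2 size factors the sign changed for Mki67 (0.021) and Tnfrsf9 (0.0010). Without a filter on low counts the sign changed for Mki67 (0.015) and Tnfrsf9 (0.0012). With the stricter filter the sign changed for Mki67 (0.019). With DESeq2 the sign changed for Mki67 (0.021), Rec114 (0.090), Tnfrsf9 (0.00045) and Xlr (-0.10). Leaving out single tumours, log2 fold changes spanned 0 at -0.042 to 0.087 for Adgre1, -0.17 to 0.35 for B2m, -0.28 to 0.15 for Ccnb1, -0.17 to 0.063 for Cd276, -0.18 to 0.089 for Cfp, -0.85 to 2.95 for Cxcl5, -0.75 to 2.54 for Cxcr2, -0.51 to 0.12 for Folr2 and -0.87 to 0.65 for Gzmb. They also did so at -0.26 to 0.64 for H2-Q7, -0.44 to 0.45 for Irf7, -0.13 to 0.0091 for Mdm2, -0.11 to 0.12 for Mki67, -0.77 to 0.0044 for Ncr1, -1.68 to 0.10 for Ngp, -0.15 to 0.68 for Oasl1, -0.11 to 0.14 for Pcna and -1.31 to 0.30 for Prf1. Further spans were -2.69 to 0.10 for Rec114, -5.56 to 0.20 for Rhox5, -1.93 to 1.56 for S100a8, -0.15 to 1.49 for Spp1, -0.25 to 1.02 for Tnfrsf9, -0.086 to 0.49 for Xcl1 and -0.21 to 2.45 for Xlr.

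Depth limits genes below 1 CPM, such as Ifng and Ccr4, and 8 tumours a group limit the rest. No paired analysis was possible because replicate numbers follow accession order and pair no tumours.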
